A study of Mus musculus with 2 samples.

Results

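The chemokine receptor gene Ccr2 and 4 chemokine genes taken as those of its monocyte-attracting ligands, Ccl2, Ccl7, Ccl8 and Ccl12, were examined. The data were single-cell transcriptomes of mouse colon lamina propria. These 5 genes were taken by symbol from 31053 features, each symbol matched 1 feature, and all 5 had counts in both libraries. One library came from wild-type mice (WT) and the other from mice labelled LncRNA17Rik knockout (KO), which the study names lncLy6c KO. The KO line carries a CRISPR-Cas9 deletion of this long non-coding RNA on a C57BL/6J background, with no Cre or tissue promoter named, and each library pooled male mice aged 8 weeks. No other allele or agent is given for either group, and whether the WT mice were littermates is not given in the sources used here. With 1 library per genotype there was no replicate check, no difference between genotypes was tested, and every interval is an exact 95% interval that covers counting error only.

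Ccr2 is a receptor coupled to G proteins that inflammatory monocytes carry at their surface and use to leave the bone marrow and to enter tissue. Ccl2 (MCP-1) and Ccl7 (MCP-3) are its main ligands for monocytes in mice. Ccl12 (MCP-5) is a mouse ligand of Ccr2, and Ccl8 (MCP-2) is a related chemokine that in mice is known chiefly as a ligand of Ccr8. In the adult colon, monocytes that enter through Ccr2 lose Ly6C, gain MHC class II and mature into resident macrophages, which carry little Ccr2.

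The 4 ligand genes lay together on the plus strand of chromosome 11 (GRCm38) within 81.2 kb, in the order Ccl2 (ENSMUSG00000035385, chr11:82035571-82037453), Ccl7 (ENSMUSG00000035373, chr11:82045712-82047525), Ccl12 (ENSMUSG00000035352, chr11:82101845-82103400) and Ccl8 (ENSMUSG00000009185, chr11:82115185-82116799), with Ccl11, the gene of an eosinophil attractant, between Ccl7 and Ccl12. Each of the 4 had 3 exons. Ccl2 overlaps the annotated gene Gm17268, whose strand was not compared, so whether reads there could belong to either was not tested. Ccr2 (ENSMUSG00000049103) lay on the plus strand of chromosome 9 at chr9:124101950-124113557. The neighbours Ccl12 and Ccl8 are shown by sequence because, 11784 bases apart, they differed in opposite directions between the libraries. The 250 bases before each start are from RefSeq (GRCm38.p6, chr11:82101595-82101844 and chr11:82114935-82115184, plus strand), and capitals mark TATAAA, the only motif of the search that matched.
Ccl12: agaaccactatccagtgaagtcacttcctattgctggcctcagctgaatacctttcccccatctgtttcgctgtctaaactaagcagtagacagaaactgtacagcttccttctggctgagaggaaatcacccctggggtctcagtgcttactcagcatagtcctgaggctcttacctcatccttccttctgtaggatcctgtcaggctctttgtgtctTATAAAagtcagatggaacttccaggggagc
Ccl8: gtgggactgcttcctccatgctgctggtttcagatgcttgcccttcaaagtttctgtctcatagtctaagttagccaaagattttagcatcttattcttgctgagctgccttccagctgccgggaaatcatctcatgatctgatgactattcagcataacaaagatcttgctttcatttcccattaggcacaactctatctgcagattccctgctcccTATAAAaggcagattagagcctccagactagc

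The match began 31 bases before the start in Ccl12 and 32 bases in Ccl8. TATAAA was present in 12.4% of 32851 promoter windows of this length. The other motifs searched, on both strands, had no match in either window. They were a loose NF-kB site (in 45.8% of windows), the AP-1 site TGANTCA (6.75%), TTCNNNGAA (7.02%) and the interferon response core (2.98%). A missing match says only that these letters are not in this window. The Ccr2 entry was not printed because its window overlaps the annotated gene, and Ccl2 and Ccl7 are named only.

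After filtering, 2597 WT cells with 18994564 unique molecular identifiers (UMIs, the counted molecules) and 2514 KO cells with 22331342 UMIs were compared. A WT cell had 5073 UMIs at the median and a KO cell 6564. Of 6205 barcodes, 1 occurred in both libraries and none after filtering. The deleted RNA did not check the labels, since no feature bears either of its names, and the single gene matched by the study's primers (1700016P04Rik) had 0 UMIs in both libraries. The labels give the cells as cd11b+, the protein of Itgam, but an Itgam UMI was found in 40.0% of WT and 57.8% of KO cells. Plasma cell-like cells numbered 254 in WT and 5 in KO, and epithelial-like cells 122 and 15. The part of these unequal admixtures in the results was not tested. The median log2 ratio of KO to WT over all genes tested, given as a reference for each ratio, was -0.24 over all cells.

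To ask which cells make the ligands and which carry the receptor, clusters were named from marker genes, and levels were given as UMIs per 1000000 UMIs of that class and library (CPM). The monocyte and macrophage cells fell into 3 clusters. They were inflammatory monocyte-like (76 WT and 316 KO cells, all 8 monocyte markers raised), resident macrophage-like (153 and 130, all 10 macrophage markers raised) and an intermediate cluster with equal shares of both marker sets raised (630 and 43). A further cluster led by Retnla, Fn1 and Lpl (12 and 149) stayed unnamed and is called the Retnla cluster. Membership was divided by library, since the intermediate cluster was 93.6% WT and the Retnla cluster 92.5% KO, so the first 3 were also summed as a pool of 859 WT and 489 KO cells. Ccl12 and Ccl4 were among the 10 leading genes of the resident cluster and Ccl2 among those of the Retnla cluster, although the 5 genes were kept out of clustering, so levels between classes are descriptions.

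In WT the receptor and all 4 ligands were highest in the monocyte and macrophage groups or the Retnla cluster, in a different order within them. In KO this held for all but Ccl8, which was highest in fibroblast-like cells. In WT, Ccr2 was highest in inflammatory monocyte-like cells at 1170 CPM (1072 to 1274), followed by intermediate cells at 788 CPM (760 to 818) and the Retnla cluster at 646 CPM (491 to 835). Resident macrophage-like cells had 449 CPM (407 to 494), NK cell-like cells 388 CPM (222 to 630) and cDC2-like dendritic cells 294 CPM (275 to 314). An unnamed, shallow cluster led by Gm26917 had 772 CPM (675 to 880). The Retnla interval overlapped those of its neighbours on both sides, and the NK interval those of the resident and cDC2-like cells. Overlap of separate intervals does not show that such neighbours are alike, and these classes were not tested against each other. Below them came cDC1-like dendritic cells at 83.4 CPM (65.2 to 105), close to the 78.2 CPM of fibroblast-like cells (32 UMIs). Neutrophil-like cells had 44.6 CPM and T cell-like cells 41.3 CPM. B cell-like cells, which stand for background from free RNA, had 13.9 CPM (6.65 to 25.5) and epithelial-like cells 3.54 CPM (1.53 to 6.97) in WT. The 15 KO epithelial-like cells had 47.4 CPM from 6 UMIs. In KO the first places were held by intermediate cells at 583 CPM (514 to 659), monocyte-like cells at 556 CPM (528 to 585) and the Retnla cluster at 524 CPM (488 to 561), whose intervals overlapped. cDC1-like, resident macrophage-like and cDC2-like cells followed at 192 (176 to 209), 192 (166 to 221) and 177 CPM (169 to 185), again with overlapping intervals.

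Ccl2, the principal monocyte attractant, was read in all monocyte and macrophage groups. WT levels were 902 CPM (717 to 1121) in the 12 cells of the Retnla cluster, 367 CPM (313 to 427) in monocyte-like, 340 CPM (304 to 380) in resident and 208 CPM (193 to 223) in intermediate cells. The intervals of monocyte-like and resident cells overlapped. Outside these groups the WT level was 81.3 CPM (52.1 to 121) in the Gm26917 cluster, 75.7 CPM (51.4 to 107) in fibroblast-like and 36.8 CPM (30.4 to 44.3) in cDC2-like cells, against 1.39 CPM in B cell-like cells (1 UMI). Thinning each cell to 2000 UMIs and leaving out shallower cells gave a Ccl2 UMI in 31.3% of WT resident cells (23.0 to 40.6) and in none of 157 WT B cell-like cells, which allows up to 2.32%.

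In WT, Ccl7 and Ccl12 were weighted toward resident macrophages. Of WT cells 5.89% were resident macrophage-like, and these held 52.2% of WT Ccl7 UMIs and 53.9% of WT Ccl12 UMIs. For Ccl7 the WT level was 240 CPM (210 to 274) in resident, 38.8 CPM (32.7 to 45.7) in intermediate and 28.9 CPM (15.4 to 49.4) in monocyte-like cells, the last pair overlapping, and the 12 WT cells of the Retnla cluster had 290 CPM (189 to 424), which overlapped the resident level. For Ccl12 it was 142 CPM (119 to 169) in resident, 40.0 CPM (23.7 to 63.3) in monocyte-like and 23.1 CPM (18.4 to 28.5) in intermediate cells, with 55.7 CPM (18.1 to 130) in the Retnla cluster from 5 UMIs. In KO the resident share was 57.6% of Ccl12 UMIs but 30.8% of Ccl7 UMIs, beside 29.0% in monocyte-like cells and 25.8% in the Retnla cluster. The 18 WT monocyte-like Ccl12 UMIs came from only 2 cells. No B cell-like or epithelial-like cell of either library held a Ccl12 UMI.

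Ccl8 had the fewest UMIs, 239 in WT and 33 in KO. The WT level was 104 CPM (84.7 to 127) in resident macrophage-like cells, 34.2 CPM (18.7 to 57.4) in fibroblast-like and 27.1 CPM (22.1 to 33.0) in intermediate cells, and 1 UMI was found in monocyte-like cells. Of the 100 intermediate UMIs, 84.0% came from 5 of 630 cells, and 1 cell held 68 UMIs. Fibroblast-like cells, the only stromal class, were few (72 WT and 18 KO) but held 36.4% of the KO Ccl8 UMIs (12 of 33).

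**Figure D1:**
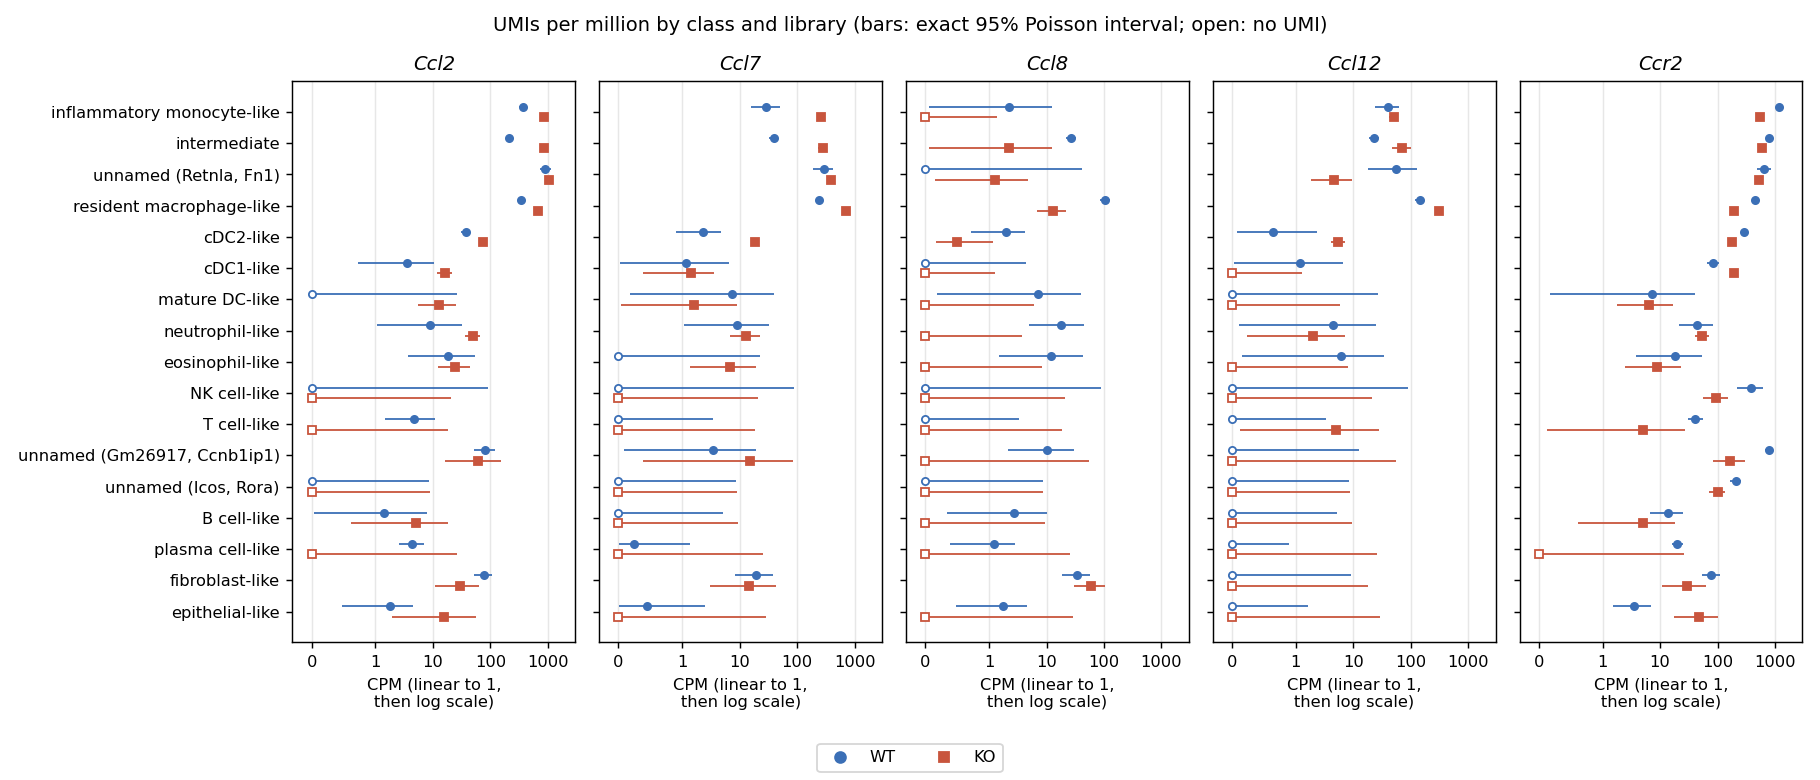
Levels (CPM, linear to 1 and then log scale) of the 5 genes in each class, with WT as blue circles, KO as red squares, exact 95% Poisson intervals as bars and open symbols where no UMI was counted. Ccr2 is highest at the monocyte end (1170 CPM in WT monocyte-like cells), while Ccl12 is highest in resident macrophage-like cells (142 CPM in WT and 312 in KO).

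Between the libraries, Ccl2 and Ccl7 were higher in KO and Ccl8 was lower, both over all cells and in the monocyte and macrophage pool. Over all cells Ccl2 stood at 80.7 CPM (WT) and 258 CPM (KO), with a log2 KO to WT ratio of 1.67 (1.59 to 1.76). Ccl7 was 22.5 and 104 CPM (2.21, 2.06 to 2.37), in the same order. Ccl12 stood at 12.9 and 24.3 CPM (0.91, 0.69 to 1.14). All 3 were thus higher in KO beyond counting error, Ccl12 by less than 2-fold. Ccl8 was 12.6 and 1.48 CPM (-3.09, -3.66 to -2.56), with 52.7% of the WT UMIs in 5 cells, and the log2 ratio was -3.35 without the 5 richest cells of each library. Ccr2 was 285 and 233 CPM (-0.29, -0.35 to -0.24), which is -0.05 relative to the median of all genes. Of the 5 genes, 2 were at least 2-fold higher and 1 at least 2-fold lower in KO, where 2.69% and 13.4% of 14006 genes with at least 20 UMIs were.

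In the pool, 3 of 5 genes were at least 2-fold higher in KO against 2.59% of 10032 genes, and 1 was lower against 5.64%. Ccl2 was 246 CPM in WT and 799 CPM in KO (log2 ratio 1.70, 1.60 to 1.79). Ccl7 was 74.8 and 371 CPM (2.31, 2.15 to 2.47) and Ccl12 was 46.4 and 117 CPM (1.33, 1.10 to 1.56). These 3 ligands kept their direction inside the monocyte and macrophage cells, and so did Ccl8. Ccl8 was 39.1 and 3.42 CPM (-3.51, -4.41 to -2.73), from 198 and 14 UMIs. Ccr2 was 760 and 470 CPM (-0.69, -0.77 to -0.61), less than 2-fold. The median of all genes in the pool was -0.19. Adding the Retnla cluster gave 1.75 for Ccl2, 2.26 for Ccl7, 0.88 for Ccl12, -3.76 for Ccl8 and -0.65 for Ccr2, so Ccl12 then fell short of 2-fold.

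**Figure D2:**
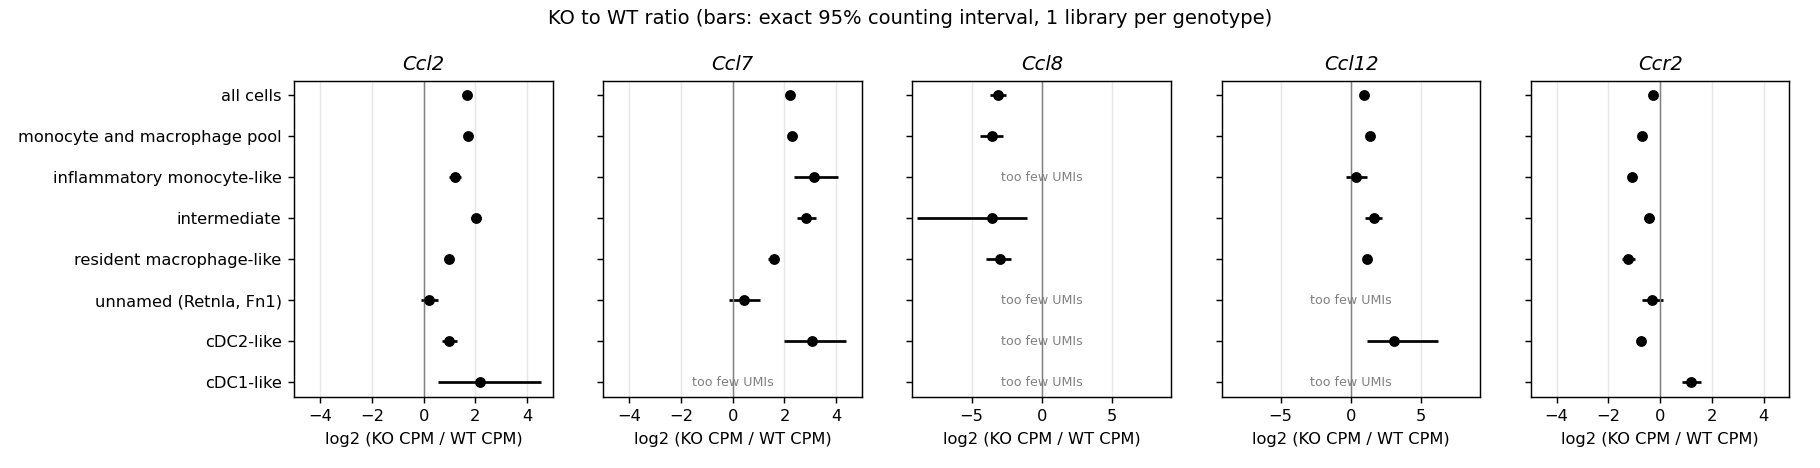
Log2 ratio of KO to WT CPM for each gene in all cells, the monocyte and macrophage pool and single classes, with exact 95% counting intervals as bars and 1 library per genotype; horizontal scales differ between panels. Ccl2 and Ccl7 lie above 0 and Ccl8 below 0 in the pool (1.70, 2.31 and -3.51), and Ccr2 lies above 0 in cDC1-like cells alone among those drawn (1.20).

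Resident macrophage-like cells, 153 in WT and 130 in KO (237 and 103 with the stricter cell filter, 483 and 132 at Leiden resolution 1.5), had higher Ccl2, Ccl7 and Ccl12 and lower Ccl8 and Ccr2 in KO. Ccl7 was 240 CPM in WT and 718 CPM in KO (log2 ratio 1.58, 1.36 to 1.80), with a UMI in 20.9% (13.9 to 29.4) and 45.4% (35.8 to 55.2) of thinned cells. Ccl12 was 142 and 312 CPM (1.13, 0.84 to 1.44), with a UMI in 15 of 115 WT and 27 of 108 KO thinned cells. Ccl2 was 340 and 665 CPM (0.97, 0.77 to 1.16), with 31.3% and 46.3% (36.6 to 56.2) of thinned cells. Higher levels of these 3 ligands thus went with more cells holding a UMI, although the thinned intervals overlapped for Ccl2 and Ccl12. Ccl8 went the other way, at 104 CPM from 97 UMIs in WT and only 13 UMIs in KO (-3.01, -3.97 to -2.16), and a thinned UMI was left in 9 of 115 WT cells and 1 of 108 KO cells. The size of this difference depended on a few cells, as 5 of the 153 WT cells held 61.9% of the WT UMIs. Without those 5 WT cells, a step added after the data were seen, 37 WT UMIs stood against the 13 in KO (-1.67, -2.71 to -0.73). Ccr2 was 449 and 192 CPM (-1.23, -1.48 to -0.98), with 40.0% (31.0 to 49.6) and 16.7% (10.2 to 25.1) of thinned cells, against 1.91% of WT and 1.19% of KO B cell-like cells. In this class 2 genes were at least 2-fold higher (4.09% of 7162 genes) and 2 at least 2-fold lower (11.5%), and the median of all genes was -0.28. Ccr2 stayed lower but was no longer past 2-fold under 5 of 11 alternatives, with -0.48 for classes from marker scores and -0.49 for each library clustered alone. Under the same 11, the log2 ratio ran from 1.06 to 1.89 for Ccl2, 1.69 to 2.88 for Ccl7 and 0.85 to 2.34 for Ccl12. Ccl2 was thus past 2-fold under all 11.

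Other transcripts in the same resident cells moved as well. The 10 macrophage markers summed to 21625 CPM in WT and 21457 CPM in KO with none at 0, but C1qa, a complement subunit of mature macrophages, was 3903 and 2738 CPM, and Ly6c2, the monocyte surface marker, was 37.7 and 2.00 CPM. Monocyte markers summed to 475 and 263 CPM, and the 13 mitochondrial transcripts to 46339 and 56482 CPM. Ifnb1, the gene of interferon beta, had 0 UMIs in WT and 282 in KO, present in 33.1% of KO resident cells. Immunoglobulin UMIs, which plasma cells make, were 1616 and 54.0 CPM. Dendritic cell marker sums went both ways. They were higher in KO for cDC2 (164 and 426 CPM) and mature cells (62.5 and 176 CPM). For cDC1 (570 and 430 CPM) and plasmacytoid cells (293 and 237 CPM) they were lower. MHC class II genes summed to 30808 and 46528 CPM. The part of all these transcripts in the chemokine results was not tested.

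Inflammatory monocyte-like cells, which stand for recent arrivals from blood, differed less evenly. Ccr2 was 1170 CPM in WT and 556 CPM in KO (log2 ratio -1.07, -1.22 to -0.93), and 82.9% (72.0 to 90.8) and 52.9% (47.0 to 58.7) of thinned cells held a UMI. Ccl2 was 367 and 842 CPM (1.20, 0.97 to 1.43). The share of thinned cells with Ccl2 was 25.7% (16.0 to 37.6) and 30.4% (25.2 to 36.0), whereas a positive cell held on average 4.12 (WT) and 14.7 (KO) UMIs before thinning, where the median cell had 6086 and 9120 UMIs. Ccl7 was 28.9 and 255 CPM (3.14, 2.36 to 4.06), from 13 and 676 UMIs, and 58.1% of the KO UMIs came from 5 of 316 cells. Without the 5 richest cells of each library the log2 ratio was 4.49, from 2 and 283 UMIs. Ccl12 was 40.0 and 50.6 CPM (0.34, -0.38 to 1.14), and 92.5% of the KO UMIs came from 5 cells. Ccl8 had 1 UMI in WT and 0 in KO, which allows no ratio. Here 2 of 4 genes with enough UMIs were at least 2-fold higher (5.4% of 7423 genes) and 1, Ccr2, lower (7.75%). Ccr2 stayed past 2-fold under 2 of 11 alternatives and was between -0.98 and -0.55 under the other 9.

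That Ccr2 value rested on 76 WT cells, and the intermediate cluster, mostly WT, also had 4 of 8 monocyte markers raised. With the intermediate cluster counted in, 706 WT and 359 KO cells gave a log2 ratio of -0.57 for Ccr2 and 1.90 for Ccl2. Clustering on 4000 variable genes placed 869 WT and 393 KO cells in the monocyte-like class, where the Ccl7 ratio turned to -0.37 and the Ccr2 ratio was -0.55. Monocyte markers in the monocyte-like class summed to 9655 CPM in WT and 7455 CPM in KO, macrophage markers to 3115 and 1674 CPM (1 of 10 at 0 in KO), Ly6c2 was 1926 and 1212 CPM, and immunoglobulin UMIs were 1345 and 32.1 CPM. These marker levels were lower together with Ccr2, and their part was not tested.

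Intermediate cells, with 630 WT but only 43 KO cells, had Ccl2 at 208 and 846 CPM (2.03, 1.84 to 2.21), Ccl7 at 38.8 and 279 CPM (2.85, 2.49 to 3.20), Ccl12 at 23.1 and 70.3 CPM (1.61, 0.97 to 2.22) and Ccl8 at 27.1 and 2.27 CPM (-3.58, -8.90 to -1.07). In KO, 5 cells supplied 83.6% of the Ccl2 UMIs and 95.1% of the Ccl7 UMIs. Ccr2 was 788 and 583 CPM (-0.44, -0.63 to -0.25). Here 3 genes were at least 2-fold higher (2.86% of 8434 genes) and 1 lower (13.8%). In the Retnla cluster, by contrast, the intervals for Ccl2 (902 and 1051 CPM, 0.22, -0.10 to 0.56), Ccl7 (290 and 388 CPM, 0.42, -0.14 to 1.05) and Ccr2 (646 and 524 CPM, -0.30, -0.69 to 0.11) all included 0, with 12 WT cells behind them. Its Ccl12 was 55.7 and 4.53 CPM (-3.62, -5.49 to -1.62), lower in KO unlike in the pool, from 5 UMIs in 1 WT cell and 7 UMIs in KO. This cluster held 28.2% of all KO Ccl2 UMIs and 25.8% of all KO Ccl7 UMIs, against 5.28% and 6.09% in WT.

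To compare across the borders between these clusters, pool and Retnla cluster cells with at least 2000 UMIs were sorted by marker UMIs. The sort asked whether a UMI of Ly6c2 or of a C1q gene (C1qa, C1qb or C1qc, made by mature macrophages) was present after thinning to 2000 UMIs. A marker UMI lost in thinning thus counts as absent, while CPM used all UMIs of the sorted cells. Cluster membership still decided which cells entered. The sort was chosen after the data were seen. Its groups drew on different clusters in the libraries, as cells with Ly6c2 alone were 74.7% intermediate in WT and 92.9% inflammatory monocyte-like in KO, and the Retnla cluster made up 2.71% of WT and 43.7% of KO cells with C1q alone. From Ly6c2 alone to C1q alone, WT Ccr2 went from 1063 CPM (1007 to 1122) to 534 CPM (504 to 565), and KO Ccr2 from 629 CPM (593 to 667) to 378 CPM (353 to 405). Ccr2 was lower in KO in each of the 4 groups, with log2 ratios from -0.99 to -0.50. Ccl2 was higher in KO in each group, with log2 ratios of 1.67 in cells with Ly6c2 alone, 1.73 with both, 1.59 with neither and 2.18 with C1q alone. Ccl7 was higher in each, with ratios from 1.54 to 4.02, the largest in cells with Ly6c2 alone (19.3 and 313 CPM). Ccl12 ratios were 1.54 with Ly6c2 alone (0.95 to 2.18), 2.47 with both markers (1.33 to 3.54, from 23 and 12 UMIs) and 0.93 with C1q alone (0.65 to 1.21), and with neither marker the interval included 0 (-0.12 to 2.99). WT Ccl8 was 80.4 CPM (69.0 to 93.3) in cells with C1q alone and at most 4.83 CPM in the other groups, and in KO it was 6.95 CPM (3.89 to 11.5) in cells with C1q alone. The group with both markers had 112 WT but 11 KO cells. Without the Retnla cluster the ratios ran from -1.36 to -0.54 for Ccr2, from 1.66 to 1.74 for Ccl2 and from 1.56 to 4.58 for Ccl7. The largest Ccl7 ratio was then in cells with neither marker (3.20 to 6.47). With Ly6c2 alone it was 4.07 (3.48 to 4.72), an overlapping interval. In cells with C1q alone, leaving it out moved Ccr2 from -0.50 to -1.36 (-1.57 to -1.15) and Ccl12 from 0.93 to 1.86 (1.58 to 2.14), and with neither marker the Ccl12 interval no longer included 0 (0.11 to 3.24).

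**Figure D3:**
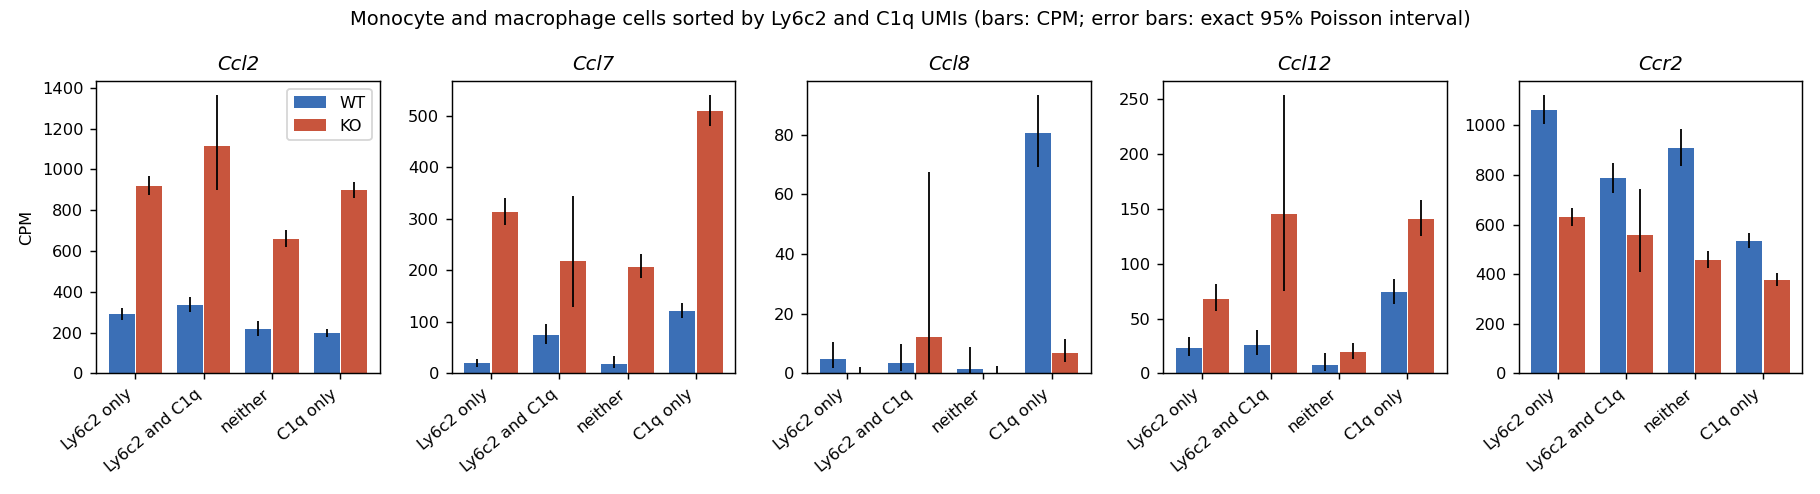
CPM (bars, with exact 95% Poisson intervals) of the 5 genes in monocyte and macrophage cells grouped by presence of Ly6c2 and C1q UMIs, for WT (blue) and KO (red). Ccr2 is lower in KO in all 4 groups (1063 and 629 CPM with Ly6c2 alone), Ccl2 and Ccl7 are higher in all 4, and Ccl8 stands out in WT cells with C1q alone (80.4 CPM).

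Ligand and receptor transcripts were next read in the same thinned cells. Of 685 WT cells of the pool, 48.0% held Ccr2 without a ligand, 19.4% both, 9.64% a ligand alone and 22.9% neither. Of 440 KO cells, 30.5% held Ccr2 alone, 14.3% both, 26.1% a ligand alone and 29.1% neither. Ccr2 was found in 66.8% (59.8 to 73.3) of WT ligand-positive cells and in 67.7% (63.3 to 71.8) of ligand-negative cells, with intervals that overlapped. In KO it was found in 35.4% (28.4 to 42.9) of ligand-positive and 51.2% (44.9 to 57.4) of ligand-negative cells, with intervals that did not overlap. In resident macrophage-like cells 58.3% (KO) held a ligand alone and 10.2% both, against 27.8% and 18.3% of WT cells. Within the KO resident class, Ccr2 was found in 14.9% (7.66 to 25.0) of ligand-positive and 20.6% (8.70 to 37.9) of ligand-negative cells, and within the KO monocyte-like class in 51.1% (40.4 to 61.7) and 53.7% (46.6 to 60.8), so inside each class the intervals overlapped. A missing UMI in a cell thinned this far does not show that the gene is silent there.

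Ccl7 was found more often in resident cells with Ccl2 than in those without it. After thinning it was in 52.8% (35.5 to 69.6) of WT cells with Ccl2 and 6.33% (2.09 to 14.2) of those without, and in KO in 64.0% (49.2 to 77.1) and 29.3% (18.1 to 42.7). In WT resident cells 79.2% of the 24 cells with Ccl7 also held Ccl2, and in KO 65.3% of 49 cells did. Ccl12 was found in 29.2% of WT and 40.8% of KO resident cells with Ccl7, against 8.79% and 11.9% of those without it. Of the 19 Ccl8 cells of the WT pool, 5 held Ccl2, 4 held Ccl7 and none held Ccl12 (up to 17.6% allowed). With all UMIs instead, 16.7% (7.48 to 30.2) of 48 Ccl8 cells held Ccl12, against 8.26% (6.46 to 10.4) of the cells without Ccl8, so no separation of these ligands was seen. Ccr2 was found in 7 of these 19 cells (36.8%, 16.3 to 61.6), compared with 68.3% (64.6 to 71.8) of the WT pool cells without Ccl8. The pool mixes classes, and WT resident macrophage-like cells, which had its highest WT Ccl8 level, held Ccr2 less often than the pool. The part of class in this comparison was not tested.

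**Figure D4:**
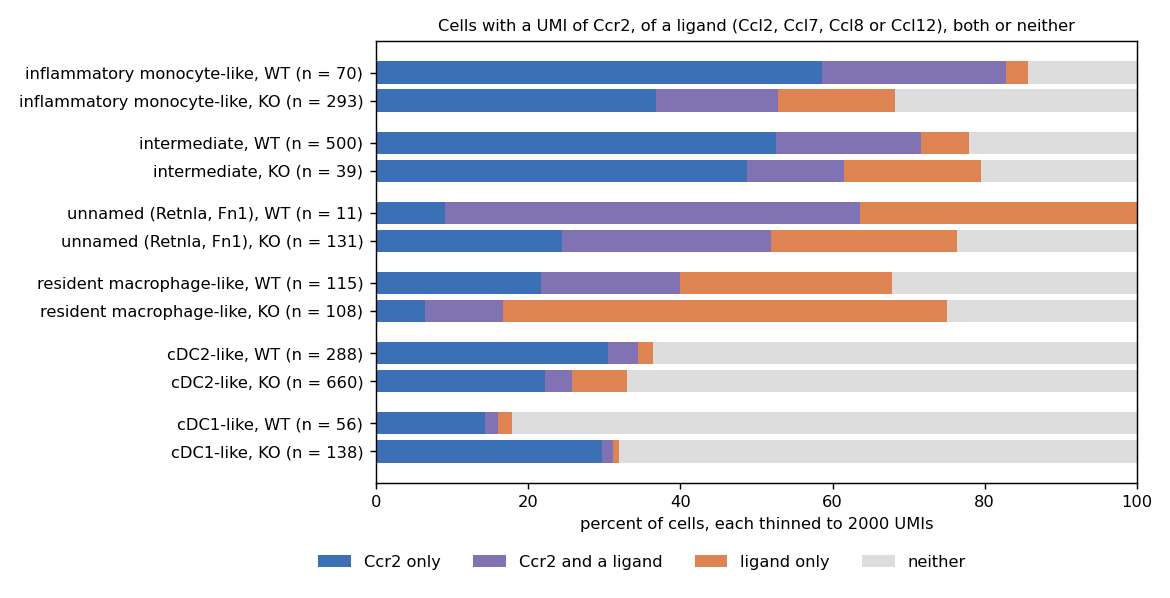
Percent of cells, each thinned to 2000 UMIs, with a UMI of Ccr2 alone (blue), of Ccr2 and a ligand (purple), of a ligand alone (orange) or of neither (grey), by class and library; n is the number of cells. Ligand-only cells are 58.3% of KO and 27.8% of WT resident macrophage-like cells, and Ccr2-only cells are the largest group in WT intermediate cells.

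Dendritic cells, another lineage that carries Ccr2, gave opposite differences in its subsets. In cDC2-like cells (Cd209a, Mgl2, 318 WT and 675 KO) Ccr2 was 294 and 177 CPM (log2 ratio -0.73, -0.85 to -0.61). In cDC1-like cells (Xcr1, Clec9a, 85 and 151) it was 83.4 and 192 CPM (1.20, 0.85 to 1.58), and 16.1% (7.62 to 28.3) and 31.2% (23.6 to 39.6) of thinned cells held a UMI, with intervals that overlapped. With each cell given the class of its highest marker score, the cDC1-like ratio was 0.13 (-0.09 to 0.35), which no longer passed 2-fold and included 0. The cDC2-like class was made of clusters with unlike shares of the libraries, as a Mgl2 and Ccl17 cluster had 3 WT and 169 KO cells and a Plet1 cluster 66 and 2. Within the largest cDC2-like cluster (199 and 384 cells), Ccr2 was 329 and 107 CPM (-1.62, -1.79 to -1.46) and Ccl2 was 27.1 and 28.6 CPM (0.08, -0.37 to 0.55). Over the whole class Ccl2 was 36.8 and 73.3 CPM (0.99, 0.71 to 1.29), Ccl7 was 2.26 and 18.7 CPM (3.05, 1.98 to 4.38) and Ccl12 was 0.65 and 5.48 CPM (3.08, 1.16 to 6.17), and 87.3% of the KO Ccl12 UMIs came from 5 cells. Of 4 genes with enough UMIs in cDC2-like cells, 2 were at least 2-fold higher (3.33% of 10515 genes) and none lower (4.24%), while in cDC1-like cells both genes with enough UMIs, Ccr2 and Ccl2 (3 and 46 UMIs), were at least 2-fold higher (4.47% of 8233 genes) and none lower (3.63%). The cDC2-like value depended on the class borders: it was 0.0035 (-0.26 to 0.28) with the stricter cell filter, and above 0 at Leiden resolution 1.5 (0.28, 0.09 to 0.48) and with each library clustered alone (3.55, 2.89 to 4.29).

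Among smaller Ccr2 groups, NK cell-like cells had 388 CPM in WT and 95.8 CPM in KO (-2.02, -3.09 to -0.94), from 9 and 39 cells. Fibroblast-like cells, a ligand source outside the immune lineages, had Ccl2 at 75.7 and 29.4 CPM (-1.36, -2.91 to -0.08), from 31 and 6 UMIs. Their Ccl8 was 34.2 and 58.9 CPM (0.78, -0.46 to 2.00), an interval that included 0.

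The wider pathway was read from lists of genes. Among receptors and decoys that share ligands with Ccr2, Ccr1 (370 and 317 CPM in the pool), Ccr3 (15.2 and 9.53 CPM) and the decoy-like Ccrl2 (592 and 705 CPM) were within 2-fold. Of 12 genes of signalling below the receptor, 1 was higher in the pool (2.59% over all genes), the integrin subunit gene Itgb2 (205 and 422 CPM, 1.04, 0.93 to 1.15), and 1 was lower (5.64%), the Ccr2-binding nucleoporin gene Nup85 (11.1 and 4.16 CPM, -1.41, -2.29 to -0.61). The 6 genes of monocyte growth and recruitment with enough UMIs were all within 2-fold, among them the receptor genes Csf1r (575 and 635 CPM) and Cx3cr1 (247 and 241 CPM).

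Of the 11 genes reported here from a longer list of those that induce or transcribe the ligands, 2 were at least 2-fold higher in the pool (2.59% over all genes), the cytokine genes Tnf (384 and 858 CPM, log2 ratio 1.16, 1.08 to 1.24) and Il6 (58.8 and 196 CPM, 1.73, 1.54 to 1.93). The other 9 had log2 ratios from -0.60 (Il1b) to 0.26 (Tlr4). Both were also past 2-fold in resident macrophage-like cells, with Tnf at 344 and 1585 CPM (2.21) and Il6 at 4.31 and 40.0 CPM (3.21). In monocyte-like cells neither was, with Tnf at 578 and 663 CPM (0.20) and Il6 at 176 and 269 CPM (0.62). Of the other Ccl genes, 2 of 8 were higher in the pool (2.59% over all genes), Ccl3 (369 and 1712 CPM, 2.22) and Ccl4 (632 and 3845 CPM, 2.60), which encode chemokines that attract monocytes and T cells. In resident cells 4 of 6 were higher (4.09% over all genes), Ccl3, Ccl4 (1570 and 12834 CPM, 3.03), Ccl5 (99.1 and 667 CPM, 2.75) and Ccl22 (4.31 and 74.0 CPM, 4.10). The Ccl22 value, from 4 and 74 UMIs, also enters the mature dendritic cell marker sum of these cells (62.5 and 176 CPM). Whether it came from the macrophages or from dendritic cell transcripts was not tested. The higher levels of Ccl2, Ccl7 and Ccl12 in KO resident cells stood beside higher levels of these other chemokines, while Ccl8 was lower.

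Genes whose levels followed each of the 5 most closely were taken by Pearson's r of log2(CPM + 10) over 14 points, which are the WT and KO sums of 7 classes (50 cells or more per library), among 7573 genes. The points share 2 libraries and their depths, and r is given as a description. Ccr2 was nearest to Ms4a6c (0.97), Mcub (0.96), Mmp19 (0.96), Sowahc and Cbr3 (both 0.95). Ccl7 was nearest to Trem2 (0.97), a macrophage lipid receptor gene, and Ccl12 to Itgb5 (0.97), Selenop (0.94), Ctsl (0.94) and Cx3cr1 (0.94). Ccl2 was nearest to Ednrb, Tnfsf12 and Gdf15 (each 0.94) and Ccl8 to Vipas39 (0.95), Hebp1 (0.92) and Pja2 (0.89). Between the 5 genes, Ccl7 and Ccl12 were most alike (0.95) and Ccl8 and Ccr2 least (0.20), with 0.76 between Ccl2 and Ccr2.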

How the data were processed

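The authors sequenced 10x Genomics 3' version 3 libraries and deposited raw UMI counts per gene and barcode, made with Cell Ranger 3.0.2 per the file headers. The submitters' processing notes name mm10 and Seurat 4. Here, barcodes with under 200 or over 6000 genes or over 15% mitochondrial UMIs were removed (18.5% of WT, 16.8% of KO). Counts were scaled to 10000 per cell and logged, and 2000 variable genes without the 5 examined genes, 30 principal components, 15 neighbours and Leiden clustering at resolution 1 were run on the joined libraries (Python 3.11.15, leidenalg 0.10.2, scanpy 1.11.5 and, for neighbours, scikit-learn 1.9.0).

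Clusters were named by the marker list of which most was raised (at least 2-fold over other cells with a prior of 10 CPM, in at least 10% of its cells, at least 3 markers). A cluster led by markers of another class stayed unnamed, and equal shares of monocyte and macrophage markers were called intermediate. Scrublet called 0 WT and 4 KO cells (0.159%), a rate at which it has not worked, so no doublets were removed in the main analysis.

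UMIs were summed per class and library, with exact Poisson intervals for CPM, exact conditional binomial intervals for ratios and Clopper-Pearson intervals for shares. Genes with 20 UMIs or more in all were counted as past 2-fold after adding 1 CPM to each library. Shares were also taken with each cell thinned to 2000 UMIs, which left out 631 WT and 567 KO cells. Gene models were from GENCODE M21. The text names the 5 genes, listed pathway genes with at least 20 UMIs (some are not reported here) and, per gene, those most correlated over class sums (at least 200 UMIs in all). The examined genes, marker lists and pathway lists were chosen with earlier results of these data known. The interval code was tested on simulated data.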

Additional observations from a re-analysis of the deposited data

Results flagged for a closer look

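Ccr2 differed between the libraries in opposite directions in different classes. In cDC1-like cells it was higher in KO, while it was lower in cDC2-like, inflammatory monocyte-like and resident macrophage-like cells. The cDC1-like log2 ratio exceeded the cDC2-like ratio by 1.94, the inflammatory monocyte-like ratio by 2.28 and the resident macrophage-like ratio by 2.43. The cDC2-like direction, and with it the excess of 1.94, did not hold under every alternative. The cDC2-like ratio was 0.0035 with the stricter filter, 0.28 at Leiden resolution 1.5 and 3.55 with each library clustered alone, where the cDC1-like ratio was 1.24. With 1 library per genotype the difference was not tested. The cDC1-like ratio lay between 1.20 and 1.25 under 6 alternatives and was 0.13 when each cell took the class of its highest marker score.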

How the results depend on the processing

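No paired analysis was possible because each genotype had 1 library, and for the same reason no replicate could be left out. Over all cells 1 gene was at least 2-fold lower in KO under all 6 alternatives, and the count of higher genes was 2 under 3 of them and 3, with Ccl12, under UMIs per cell (1.19), relative to the median of all genes (1.15) and with every deposited barcode (1.09), and the Ccr2 log2 ratio ranged from -0.36 (stricter cell filter) to -0.01 (UMIs per cell). In resident macrophage-like cells all 11 alternatives kept every gene's direction, the count of higher genes was 3 instead of 2 under 10 of them, and the count of lower genes was 1 instead of 2 under UMIs per cell, relative to the median of all genes, at Leiden resolution 0.5, with each library clustered alone and with classes from marker scores. In inflammatory monocyte-like cells the count of lower genes was 0 instead of 1 under UMIs per cell, relative to the median, without the 5 richest cells, with the stricter filter, at Leiden resolution 1.5, with each library alone and with marker scores, and 2 with 4000 variable genes, and the 1 with the intermediate cluster counted in was not Ccr2 (-0.57). The count of higher genes was 1 without the top 3% of Scrublet scores and 0 with 4000 variable genes, and it was 3 instead of 2 with the intermediate cluster counted in, the stricter filter, resolution 1.5, each library alone and marker scores. Ccr2 stayed lower there under all 11, with log2 ratios from -1.06 to -0.55. With 4000 variable genes the class grew to 869 WT and 393 KO cells, its Ccl7 ratio reversed to -0.37 and its Ccl12 ratio to -4.54. Ccr2 in cDC2-like cells was 0.0035 (-0.26 to 0.28) with the stricter filter, 0.28 at resolution 1.5 and 3.55 with each library alone (76 WT and 163 KO cells). The causes were not tested. The resident Ccl8 ratio was -5.27 without the 5 richest cells of each library, from 37 and 1 UMIs. Leaving out the richest cells, the pool, the Ly6c2 and C1q sort and that sort without the Retnla cluster were added after the data were seen. Depth limits Ccl8 most, with 33 KO UMIs.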

Other observations

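Ccr2 was also read in 2 further unnamed clusters. A cluster led by Icos and Rora, with all 6 T cell markers and 4 of 5 innate lymphoid markers raised, had Ccr2 at 208 CPM (167 to 256) in 94 WT cells and 100 CPM (72.1 to 135) in 72 KO cells, and no UMI of Ccl2, Ccl7, Ccl8 or Ccl12 in either library. A cluster led by Gm26917, with median depths of 1721 and 924 UMIs, had Ccr2 at 772 CPM (675 to 880) in 135 WT cells and 165 CPM (82.3 to 295) in 54 KO cells, from 228 and 11 UMIs, and Ccl2 at 81.3 and 59.9 CPM.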
